A study of Mus musculus with 20 samples.

Results

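The comparison described here is the Rag effect minus the Rheb effect in stimulated mouse regulatory T cells (Tregs). For each gene, the Rag effect was the mean of the RagAB KO arrays minus the mean of the WT arrays of the Rag experiment, and the Rheb effect was the mean of the Rheb1/2 KO arrays minus the mean of the WT arrays of the Rheb experiment. Groups followed the sample titles, and the comparison rests on 10 of the 20 arrays of the series and on all 19505 genes tested. The groups were 2 arrays of RagAB KO and 2 of WT Tregs stimulated for 8 hours, and 3 arrays of Rheb1/2 KO and 3 of WT Tregs for which the labels state no stimulation time. All cells were CD4+CD25+ Tregs of C57BL/6 background, enriched with CD4 beads and sorted. The labels name neither the driver of the gene deletions nor the stimulus nor the animal behind each array, so each p-value covers the spread among the arrays at hand, which may be technical. For 6 arrays of the Rheb experiment the treatment field contradicts the title, the 3 stimulated WT arrays among them, while the source names match the titles.

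Rag and Rheb are small GTPases that act on the kinase complex mTORC1 in different ways. Rag heterodimers, which pair RagA or RagB with RagC or RagD, bring mTORC1 to the lysosome when amino acids are plentiful, and Rheb, which growth factor signalling releases from inhibition by the Tsc complex, activates the kinase there. The Rags also bind the transcription factors Tfeb and Tfe3 at the lysosome, which holds them in the cytoplasm, and this step does not use Rheb. Tfeb and Tfe3 switch on genes for lysosomal enzymes, the proton pump of the lysosome and autophagy, many of which carry the letters CACGTG in their promoters.

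Of the 19505 genes, 25 (0.128%) differed between both knockouts at a Benjamini-Hochberg adjusted p under 0.05, the threshold for a call. The Rag effect lay above the Rheb effect in 24 of them (0.123%) and below it in 1 (0.00513%), which was Rraga. The called differences ran in size between 1.46 and 3.30 on the log2 scale, against a median standard error of 0.29 over all genes. Every called gene had the larger effect in RagAB KO cells, narrowly so for Rhebl1 (0.78 against -0.76). The Rag effect exceeded the Rheb effect in size in 25 of 25, and both RagAB KO arrays lay outside the range of their WT arrays in 25 of 25. The 25 genes were picked by this same difference, and Rag effects spread more widely over all genes (SD 0.33 against 0.19). These counts and those of signs below are thus partly set by that choice. Both RagAB KO arrays lay above their WT arrays in 18.1% of all genes and below them in 26.2%. The effects had opposite signs in 17 of the 25 genes. In 9 of these the arrays of both experiments stood apart from their WT arrays in opposite directions, as they did with Rag up and Rheb down in 1.26% of all genes and the other way round in 1.14%. Taken alone, the Rag effect was called in 13 of the 25 genes (0.103% of all genes), the Rheb effect in 3 (0.543% of all genes), both in 0 and neither in 9.

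**Figure D1:**
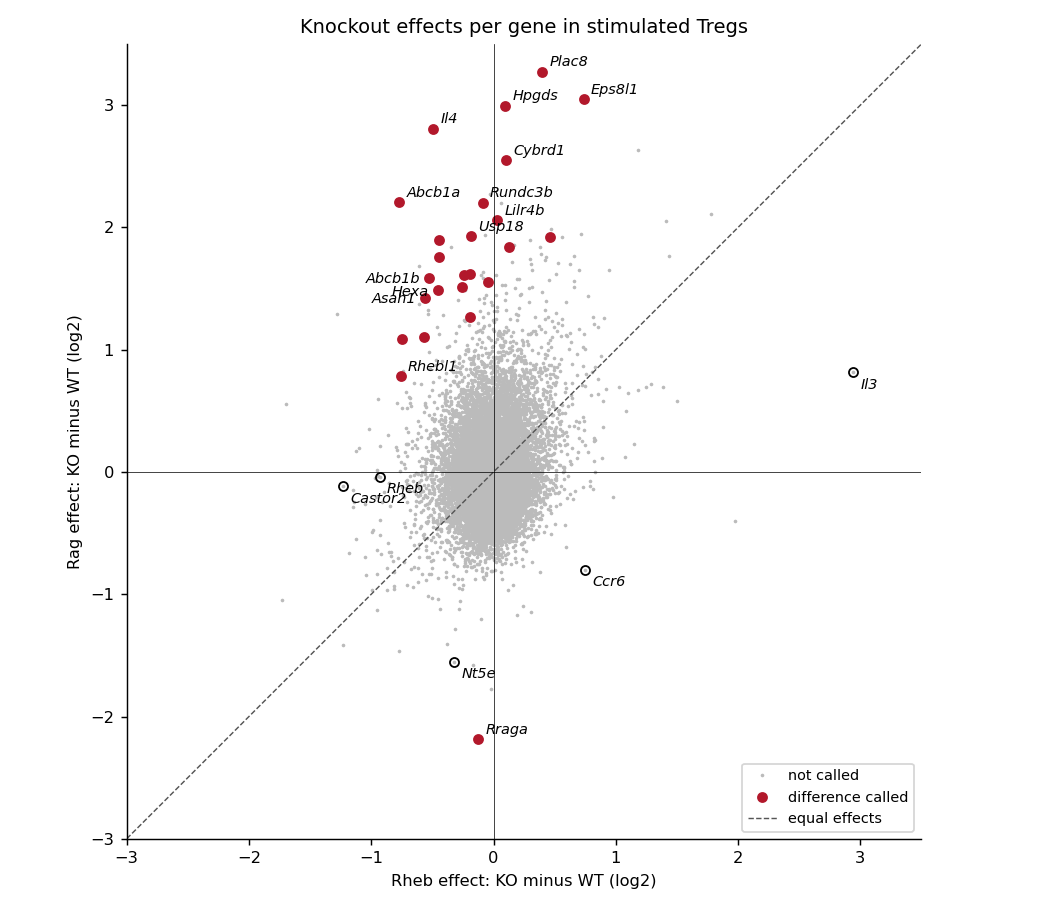
Rag effect (vertical) against Rheb effect (horizontal) for each of 19505 genes, both as KO minus WT on the log2 scale in stimulated Tregs. Red points are the 25 genes whose difference was called, open circles are Il3, Nt5e, Castor2, Rheb and Ccr6, and points above the dashed line have a Rag effect above the Rheb effect. The called genes stretch upward, 24 of 25 above the line, and Rraga lies below it.

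The signals were on a log2 scale, and array medians of the stimulated samples ran between 7.49 and 7.55 in the Rag experiment and between 7.68 and 7.77 in the Rheb experiment. Each experiment holds 1 knockout, so experiment and knockout cannot be told apart, neither at the level of signals nor in the difference of effects. Each effect was taken within its own experiment, but the experiments may differ in more than the knockout, such as in stimulation time. The part of this in the differences was not tested. Rag effects spread more widely over genes (SD 0.33) than Rheb effects (SD 0.19), with medians of -0.05 and -0.01, and the median difference was -0.04, so that 45% of all genes lay above 0. Across genes, which are not independent replicates, both effects had a correlation of 0.16. WT array 2 of the Rag experiment lay below WT array 1 in 19 of the 24 genes called higher, against 45.3% of all genes and 59.8% of the 10279 genes that were bright enough to be named. Cd3e, Cd3g, Cd4, Il2ra, Ctla4, Ikzf2 and Tnfrsf18, genes of T cells and Tregs, read above the negative control median in 10 of 10 stimulated arrays. The sort marker Il2ra was dim, between 8.33 and 9.17 in the Rag experiment and between 7.70 and 7.98 in the Rheb experiment. Signals of different probes cannot be set against each other, so this shows detection and not the identity of the cells. In such bulk samples, a change in the share of 1 cell type and a change in RNA per cell cannot be told apart.

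Of the targeted genes, Rraga and Rhebl1 had called differences, and Rragb and Rheb did not. Rraga, which encodes RagA, read 7.17 and 7.50 in RagAB KO arrays, against 9.76 and 9.28 in WT arrays. In the Rheb experiment Rraga read 9.79, 9.88 and 9.74 in Rheb1/2 KO arrays, against 10.07, 9.91 and 9.80 in WT arrays. Only the RagAB KO arrays stood apart, and the Rag effect of -2.18 ± 0.25 (SE) against a Rheb effect of -0.13 ± 0.13 gave a difference of -2.06 ± 0.28 (adjusted p = 0.00613, Welch test on moderated limma variances). The call for Rraga ended when RagAB KO array 1 was left out (adjusted p = 0.183) and also without both stimulated Rag arrays numbered 2. Rragb, which encodes RagB, overlapped between groups, with 7.38 and 6.94 in RagAB KO arrays, against 7.62 and 7.14 in WT arrays, and overlapping values in the Rheb experiment. Its difference was -0.23 ± 0.38 (adjusted p = 0.966), and the position of its probes relative to the deleted part is not known here.

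Rheb read 9.37, 9.47 and 9.33 in Rheb1/2 KO arrays, against 10.52, 10.18 and 10.27 in WT arrays. In the Rag experiment Rheb read 9.64 and 10.25 in RagAB KO arrays, against 9.94 and 10.03 in WT arrays. The groups overlapped in the Rag experiment and stood apart in the Rheb experiment, where the Rheb effect was -0.93 ± 0.17 (limma adjusted p = 0.0278, and up to 0.123 without any 1 of the 6 stimulated Rheb arrays). The difference for Rheb, 0.89 ± 0.34, had an unadjusted p of 0.0158 and was not called (adjusted p = 0.878).

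Rhebl1, the gene of the second Rheb protein and so the second gene named by Rheb1/2 KO, was called higher. The position of its probes relative to the deleted part is not known here. It read 7.87 and 8.02 in RagAB KO arrays, against 7.21 and 7.11 in WT arrays, and 4.99, 5.28 and 5.27 in Rheb1/2 KO arrays, against 6.05, 6.10 and 5.67 in WT arrays. The knockout arrays stood above WT in the Rag experiment and below WT in the Rheb experiment, where both group means were under the median of the negative controls. The difference was 1.54 ± 0.30 (adjusted p = 0.0272), made of a Rag effect of 0.78 and a Rheb effect of -0.76, and its call ended without any 1 of 7 stimulated arrays (adjusted p up to 0.543). Rragc and Rragd, whose products pair with RagA and RagB and whose genes are themselves known Tfeb and Tfe3 targets, had differences of 1.23 ± 0.34 and 1.24 ± 0.33 that were not called (adjusted p = 0.384 and 0.336). Rragd read 10.26 and 10.48 in RagAB KO arrays, against 9.21 and 9.05 in WT arrays, and the Rheb1/2 KO and WT arrays overlapped.

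**Figure D2:**
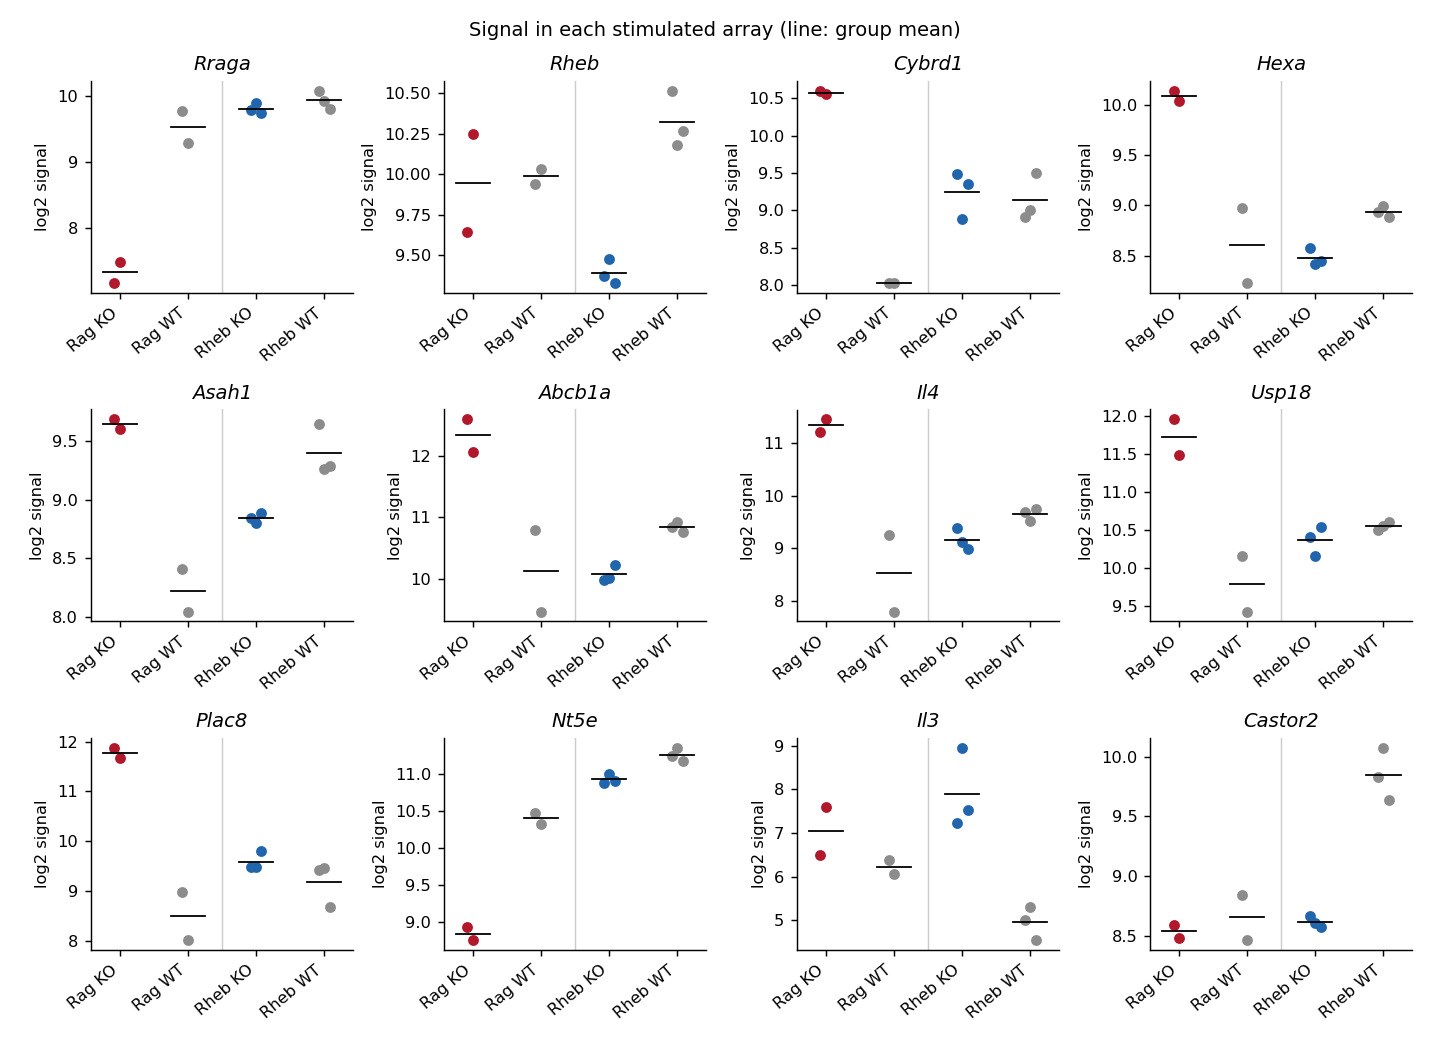
Log2 signal of 12 genes in each stimulated array, with RagAB KO and its WT arrays left of the grey line and Rheb1/2 KO and its WT arrays right of it; each point is 1 array and each line a group mean. Rraga is low only in RagAB KO arrays, and Rheb and Castor2 are low in Rheb1/2 KO arrays relative to their WT arrays. Cybrd1, Hexa, Asah1, Abcb1a, Il4, Usp18 and Plac8 are high in RagAB KO arrays relative to their WT arrays.

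The most stable call was Cybrd1, a ferric reductase that prepares iron for uptake. Cybrd1 read 10.60 and 10.55 in RagAB KO arrays, against 8.03 and 8.03 in WT arrays, a 5.85-fold ratio, and 9.48, 8.89 and 9.35 in Rheb1/2 KO arrays, against 8.91, 9.01 and 9.49 in WT arrays. The groups of the Rag experiment lay far apart and those of the Rheb experiment overlapped. Its difference of 2.44 ± 0.31 (adjusted p = 0.000334) was called in all 20 fits that left out 1 array, between 2.26 and 2.56, and was not called without both stimulated Rag arrays numbered 2. Of the 10 measured genes of iron uptake and storage, Cybrd1 was the 1 called. Ftl1, a ferritin chain that stores iron, had a difference of 0.90 ± 0.26 that was not called (adjusted p = 0.473).

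The calls depended on single arrays of the Rag experiment, which has 2 per group. Without RagAB KO array 1, Cybrd1 was the 1 gene of the 25 still called, and without WT array 2 Cybrd1 and Rraga were. Without RagAB KO array 2 there were 6 of the 25 left, namely Cybrd1, Rraga, Abcb1a, Hpgds, Plac8 and Eps8l1, and without WT array 1 there were 15. Without both stimulated Rag arrays numbered 2, a choice made after seeing the data, the 1 called gene was Hpgds. The sign of the difference was the same for 25 of 25 genes in each of these fits, and the plot of left-out arrays shows how far the values moved.

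**Figure D3:**
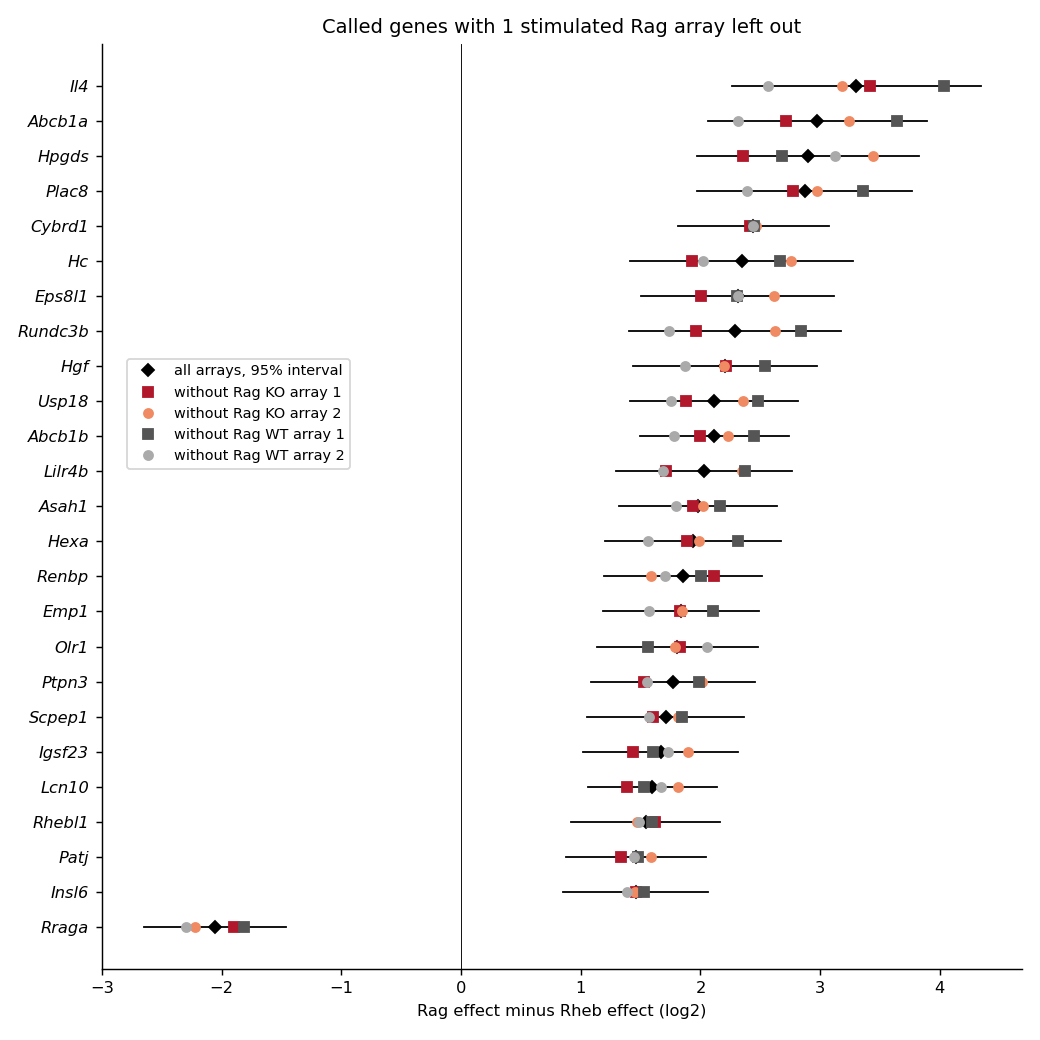
Difference between the Rag and Rheb effects (log2) for the 25 called genes, with all arrays (black diamonds, lines for the unadjusted 95% interval) and with 1 stimulated Rag array left out (squares for arrays numbered 1, circles for arrays numbered 2; red tones KO, grey tones WT). The values of Cybrd1 lie close together, while Il4 runs between 2.57 and 4.03.

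Lysosomal genes had the highest median difference of the lists with 10 or more measured genes. Of 41 measured genes of the lysosome, autophagy and Tfeb targets, 32 had a difference above 0, and the median difference was 0.45, against -0.04 over all genes. The median Rag effect was 0.33 and the median Rheb effect -0.10. Hexa was the 1 member called, 12 had an unadjusted p under 0.05 in the higher direction (3.36% of all genes) and 0 in the lower direction (1.45%). Both RagAB KO arrays lay above their WT arrays for 24 of the 41 (18.1% of all genes). WT array 2 of the Rag experiment lay below WT array 1 for 33 of the 41, and without WT array 2 the median was 0.28, 32 remained above 0 and 6 had an unadjusted p under 0.05 (1.02% of all genes then). The count under 0.05 was 8 without RagAB KO array 1 (1.76% of all genes) and 8 without RagAB KO array 2 (2.21%), and 15 without WT array 1 (5.44%), and Hexa was not called without KO array 1, KO array 2 or WT array 2.

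Hexa, which encodes the alpha chain of the lysosomal enzyme beta-hexosaminidase, read 10.14 and 10.04 in RagAB KO arrays, against 8.98 and 8.23 in WT arrays. In the Rheb experiment Hexa read 8.58, 8.42 and 8.45 in Rheb1/2 KO arrays, against 8.93, 8.99 and 8.88 in WT arrays. The arrays stood apart in both experiments, upward with Rag loss and downward with Rheb loss, for a difference of 1.94 ± 0.35 (adjusted p = 0.0272, and up to 0.717 with 1 array left out, where it was lost without any 1 of 5 Rag arrays, 2 of them unstimulated WT arrays). Asah1, the acid ceramidase of the lysosome and not on the list, showed the same arrangement. It read 9.69 and 9.61 in RagAB KO arrays, against 8.40 and 8.04 in WT arrays, and 8.84, 8.80 and 8.88 in Rheb1/2 KO arrays, against 9.65, 9.26 and 9.29 in WT arrays. Its difference was 1.98 ± 0.31 (adjusted p = 0.00919), lost without RagAB KO array 1, RagAB KO array 2 or WT array 2 (adjusted p up to 0.362).

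Scpep1, a serine carboxypeptidase, was also called, with 8.27 and 8.07 in RagAB KO arrays, against 6.47 and 6.19 in WT arrays. The Rheb1/2 KO arrays read 7.38, 7.50 and 7.47, against 7.43, 7.54 and 7.004 in WT arrays, so only the Rag groups stood apart. The difference was 1.71 ± 0.31 (adjusted p = 0.0272, up to 0.717 with 1 array left out, where it was lost without any 1 of the 4 stimulated Rag arrays or Rheb-experiment WT array 2).

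Other lysosomal enzymes missed the threshold. Gaa, the acid alpha-glucosidase that breaks down glycogen, read 11.35 and 11.21 in RagAB KO arrays, against 9.996 and 9.35 in WT arrays, with a difference of 1.71 ± 0.39 (adjusted p = 0.144). Tpp1, a peptidase, had a difference of 1.59 ± 0.38 (adjusted p = 0.224) from a Rag effect of 1.61 and a Rheb effect of 0.02. Among membrane proteins, the calcium channel Mcoln1 read 9.92 and 9.99 in RagAB KO arrays, against 9.44 and 8.89 in WT arrays, with a difference of 1.01 ± 0.29 (adjusted p = 0.407). Lamp1 and Lamp2, the abundant glycoproteins of the lysosomal membrane, had differences of 0.83 and 0.79, with both RagAB KO arrays above WT in each (adjusted p = 0.667 and 0.811). The subunits Atp6v1d, Atp6ap1, Atp6v1b2 and Atp6v0d1 of the proton pump had differences of 1.02, 1.23, 0.72 and 0.93, all with an unadjusted p under 0.05 and none called. Atp6v1d was the 1 of these whose Rheb effect, -0.70, was larger in size than its Rag effect, 0.32. Ctsa and Gabarapl1, a protease and an autophagy protein, completed the 12 with 0.85 and 0.83. The genes of the factors themselves were not called in either experiment, with a Rag effect of -0.38 and a Rheb effect of -0.05 for Tfeb, and -0.26 and -0.10 for Tfe3.

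**Figure D4:**
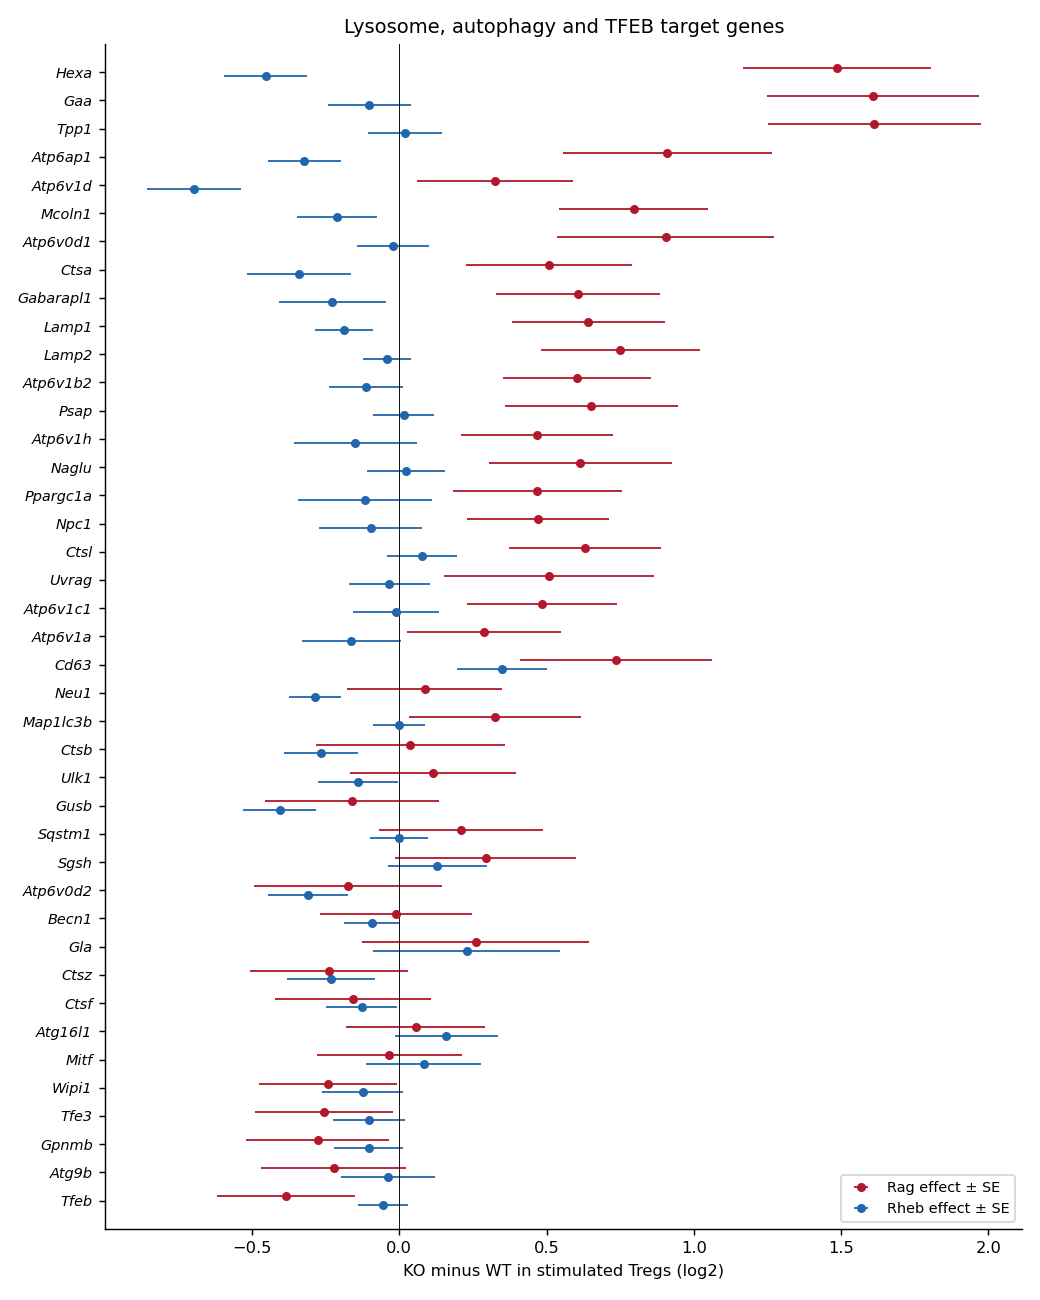
Rag effect (red) and Rheb effect (blue) as KO minus WT on the log2 scale, each with its standard error, for the 41 measured genes of the lysosome, autophagy and Tfeb targets, ordered by the difference with the highest on top. Hexa, Gaa and Tpp1 have Rag effects between 1.48 and 1.61, while their Rheb effects lie between -0.45 and 0.02.

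Promoter windows from RefSeq (GRCm38.p6), each 250 bases before to 50 after a start site, were available for 33 of the 41 genes. The letters CACGTG, which read the same on both strands, were present in 11 of the 33 (33.3%), against 9.26% of the 15691 tested genes with a window. The longer form GTCACGTG, searched on both strands and always containing CACGTG, was present in 7 of the 33 (21.2%), against 3.35%. The windows of 3 genes are shown to let the letters be seen beside the values, those of Mcoln1 and Lamp1, which hold them, and that of Hexa, the called member, which does not. The 250 bases before the start site are printed 5′ to 3′ on the gene's strand with CACGTG in capitals, from chr8:3500269-3500518 for Mcoln1, chr8:13158911-13159160 for Lamp1 and chr9:59539290-59539539 for Hexa, all on the plus strand.
Mcoln1: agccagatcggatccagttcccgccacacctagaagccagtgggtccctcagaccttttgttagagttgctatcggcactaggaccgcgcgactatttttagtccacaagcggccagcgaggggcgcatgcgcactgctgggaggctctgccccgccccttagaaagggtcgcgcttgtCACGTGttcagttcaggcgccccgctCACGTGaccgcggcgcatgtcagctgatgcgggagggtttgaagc
Lamp1: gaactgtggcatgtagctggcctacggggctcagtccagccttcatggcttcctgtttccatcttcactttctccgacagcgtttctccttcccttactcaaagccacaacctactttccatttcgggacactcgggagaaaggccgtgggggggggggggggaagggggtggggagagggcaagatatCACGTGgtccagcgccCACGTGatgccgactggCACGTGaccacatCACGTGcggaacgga
Hexa: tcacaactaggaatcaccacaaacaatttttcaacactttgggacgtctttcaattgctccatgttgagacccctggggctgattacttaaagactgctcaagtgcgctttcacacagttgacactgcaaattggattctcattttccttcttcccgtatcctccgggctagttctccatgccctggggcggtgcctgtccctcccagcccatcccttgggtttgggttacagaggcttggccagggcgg
Mcoln1 holds 2 copies, 71 and 45 bases before the start site, both within the longer form. Lamp1 holds 4 copies, 61, 45, 28 and 15 bases before it, 1 of them within the longer form. These matches describe letters and not binding, and the missing match in Hexa says only that the letters are not in this window. The list holds known Tfeb targets, so the share of its promoters with these letters is not independent of how the list was made.

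The sensing machinery upstream of mTORC1 was next. Of 34 measured genes of the mTOR complexes and of amino acid sensing, 26 had a difference above 0 with a median of 0.21, 0 were called, and 8 had an unadjusted p under 0.05, all higher (3.36% of all genes). Castor1, whose product senses arginine, and the related gene Castor2 reached similar differences by different routes. Castor1 read 10.31 and 9.85 in RagAB KO arrays, against 8.99 and 8.48 in WT arrays, and its Rheb1/2 KO and WT arrays overlapped, for a difference of 1.32 ± 0.35 (adjusted p = 0.336). Castor2 read 8.67, 8.61 and 8.57 in Rheb1/2 KO arrays, against 9.83, 10.07 and 9.64 in WT arrays, a Rheb effect of -1.23 ± 0.14 (limma adjusted p = 0.00191) that was called in 12 of 12 fits without 1 Rheb array. In the Rag experiment Castor2 read 8.60 and 8.48 in RagAB KO arrays, against 8.85 and 8.47 in WT arrays, which overlap, and the difference of 1.11 ± 0.29 was not called (adjusted p = 0.265).

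Tsc1, a subunit of the complex that inhibits Rheb, had a difference of 1.29 ± 0.41 (adjusted p = 0.589), with 10.47 and 10.28 in RagAB KO arrays, against 9.78 and 8.66 in WT arrays. Fnip1 and Flcn, the partners that act on RagC and RagD and are known Tfeb and Tfe3 targets, had differences of 1.13 and 0.79 (adjusted p = 0.733 and 0.958), with both RagAB KO arrays above WT for each. Wdr59, Sesn1 and Lamtor3 completed the 8 with 0.71, 0.65 and 0.66. Without WT array 2 of the Rag experiment the median of the list was 0.10 and 2 members had an unadjusted p under 0.05 in the higher direction (1.02% of all genes). That count was 4 without RagAB KO array 1 (1.76%), 5 without RagAB KO array 2 (2.21%) and 9 without WT array 1 (5.44%).

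The largest difference belonged to Il4, the cytokine that drives type 2 responses. Il4 read 11.21 and 11.45 in RagAB KO arrays, against 9.26 and 7.79 in WT arrays, a 7.0-fold ratio, and 9.38, 9.12 and 8.98 in Rheb1/2 KO arrays, against 9.69, 9.53 and 9.74 in WT arrays. The groups stood apart in both experiments and in opposite directions, although WT array 2 of the Rag experiment lay well below WT array 1. The difference was 3.30 ± 0.49 (adjusted p = 0.00919), lost without RagAB KO array 1, RagAB KO array 2 or WT array 2 (adjusted p up to 0.28), and not called with a trended robust prior. Of 23 measured cytokine genes, Il4 was the 1 called, and the list median was -0.03. At an unadjusted p under 0.05 there were 3 higher (3.36% of all genes) and 2 lower (1.45%). Csf1, a growth factor of macrophages, had a difference of 2.19 ± 0.41 just outside the threshold (adjusted p = 0.0592), with 11.02 and 11.22 in RagAB KO arrays, against 9.81 and 8.74 in WT arrays. Il10, an inhibitory cytokine of Tregs, had a difference of 1.57 ± 0.59 (adjusted p = 0.891) and overlapping arrays in both experiments.

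Both genes of the P-glycoprotein drug efflux pump were called. Abcb1a read 12.59 and 12.06 in RagAB KO arrays, against 10.78 and 9.46 in WT arrays, and 9.97, 10.01 and 10.22 in Rheb1/2 KO arrays, against 10.84, 10.92 and 10.76 in WT arrays. Abcb1b read 11.44 and 11.21 in RagAB KO arrays, against 10.07 and 9.40 in WT arrays, and 9.74, 9.81 and 9.91 in Rheb1/2 KO arrays, against 10.35, 10.38 and 10.31 in WT arrays. Each stood above WT with Rag loss and below WT with Rheb loss, and the Rheb effects alone were called as lower (limma adjusted p = 0.0181 and 0.0219), with adjusted p up to 0.0819 and 0.10 when 1 of 4 or 5 stimulated Rheb arrays was left out. The differences were 2.98 ± 0.43 and 2.12 ± 0.29 (adjusted p = 0.00919 each), with highest adjusted p of 0.274 and 0.28 when 1 array was left out, namely RagAB KO array 1 or WT array 2 for both and RagAB KO array 2 for Abcb1b. The genes are near copies of each other, so their probes may not tell them apart. Emp1, a membrane protein of the tetraspan type, was the other gene with a called Rheb effect, -0.75 ± 0.13 (limma adjusted p = 0.0219, up to 0.112 without any 1 of the 6 stimulated Rheb arrays), against a Rag effect of 1.09 ± 0.28, and had a difference of 1.84 ± 0.31 (adjusted p = 0.017, up to 0.591 without RagAB KO array 1, RagAB KO array 2 or WT array 2).

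Other large differences also came mainly from the Rag effect, which grows with low WT as well as high KO signals. WT means of Plac8, Hpgds, Eps8l1, Lilr4b and Rundc3b were 8.51, 6.57, 5.51, 8.54 and 7.47 in the Rag experiment. The same means were 9.19, 6.55, 7.36, 8.68 and 8.58 in the Rheb experiment. The part of these WT levels in the differences was not tested. Plac8 read 11.88 and 11.68 in RagAB KO arrays, against 8.99 and 8.02 in WT arrays, the largest Rag effect of all genes at 3.27 ± 0.37, and its difference was 2.87 ± 0.43 (adjusted p = 0.00802). Hpgds, the synthase of prostaglandin D2 in blood cells, read 10.11 and 9.02 in RagAB KO arrays, against 6.34 and 6.79 in WT arrays, with a difference of 2.90 ± 0.44 (adjusted p = 0.00919). Both Rheb groups of Hpgds had means under the median of the negative controls. Eps8l1, of a family of actin regulators, read 8.86 and 8.25 in RagAB KO arrays, against 5.50 and 5.51 in WT arrays, where it lay under the median of the negative controls, with a difference of 2.31 ± 0.39 (adjusted p = 0.00919). Its Rheb1/2 KO arrays lay above WT too, with a Rheb effect of 0.74 ± 0.29 that was not called. The RagAB KO arrays of these 3 genes lay above all their WT arrays by more than the gap between replicates. Calls for Plac8 and Eps8l1 ended without RagAB KO array 1 or WT array 2, and that for Hpgds without RagAB KO array 1, WT array 1 or WT array 2 (adjusted p up to 0.238, 0.195 and 0.238). Lilr4b, an inhibitory receptor, read 10.91 and 10.28 in RagAB KO arrays, against 8.88 and 8.20 in WT arrays, with a difference of 2.03 ± 0.35 (adjusted p = 0.0259, up to 0.717 without RagAB KO array 1, RagAB KO array 2 or WT array 2). Rundc3b had a difference of 2.29 ± 0.42 (adjusted p = 0.0272, lost without any 1 of 5 Rag arrays, with adjusted p up to 0.717).

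The other called genes, given here to complete the 25, were Hc, Hgf, Renbp, Olr1, Ptpn3, Igsf23, Lcn10, Patj and Insl6. Insl6, of the insulin family, read 10.86 and 10.87 in RagAB KO arrays, against 9.02 and 8.87 in WT arrays, and 9.44, 9.57 and 9.39 in Rheb1/2 KO arrays, against 9.21, 8.89 and 8.93 in WT arrays. Both knockouts stood above WT, and the difference was 1.46 ± 0.29 (adjusted p = 0.0417). Patj, a scaffold of tight junctions, read 10.83 and 10.58 in RagAB KO arrays, against 9.46 and 9.42 in WT arrays, with a difference of 1.46 ± 0.28 (adjusted p = 0.0374). Hgf, Renbp, Olr1 and Hc, which encode hepatocyte growth factor, an epimerase of amino sugars, a receptor for oxidised low-density lipoprotein and complement component C5, had means under the negative control median in every stimulated group but RagAB KO. Their differences were 2.21, 1.85, 1.81 and 2.34. Each of these 9 calls ended without RagAB KO array 1, RagAB KO array 2 or WT array 2 of the Rag experiment, and some without other arrays too, with a highest adjusted p between 0.302 for Hgf and 0.792 for Patj. Insl6 was also not called after a second quantile normalization, nor Hc with a trended robust prior.

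Genes stimulated by type I interferon formed the second high group. Of 28 measured, 23 had a difference above 0 with a median of 0.41, the median Rag effect was 0.56 and the median Rheb effect 0.05. Usp18 was the 1 called, 11 had an unadjusted p under 0.05 in the higher direction (3.36% of all genes) and 0 in the lower (1.45%), and both RagAB KO arrays lay above WT in 19 of the 28 (18.1%). Usp18, which strips the ubiquitin-like protein Isg15 and dampens the interferon receptor, read 11.95 and 11.48 in RagAB KO arrays, against 10.15 and 9.42 in WT arrays. Its Rheb1/2 KO arrays read 10.40, 10.15 and 10.54, against 10.50, 10.55 and 10.61 in WT arrays, which overlap, and the difference was 2.12 ± 0.33 (adjusted p = 0.0111, up to 0.405 without RagAB KO array 1, RagAB KO array 2 or WT array 2). The sensors Ddx58 and Ifih1 had differences of 1.75 ± 0.41 and 0.92 ± 0.32, the nucleotide kinase Cmpk2 1.43 ± 0.38 and Ifit1bl1 1.06 ± 0.34, and none of these was called (adjusted p = 0.22, 0.703, 0.234 and 0.553). The WT mean of Cmpk2 in the Rag experiment lay under the negative control median. Irf7, a transcription factor of the interferon response, had effects of 1.77 with Rag loss and 0.66 with Rheb loss. Without WT array 2 the list's median was 0.36 and 6 members had an unadjusted p under 0.05 in the higher direction (1.02% of all genes). The count was also 6 without RagAB KO array 1 (1.76%), 8 without RagAB KO array 2 (2.21%) and 10 without WT array 1 (5.44%).

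On the lower side, 283 genes had an unadjusted p under 0.05 (1.45%) and Rraga alone was called. Il3, a growth factor of blood progenitors, came from the Rheb side: it read 7.22, 8.96 and 7.52 in Rheb1/2 KO arrays, against 5.01, 5.31 and 4.55 in WT arrays, which lay under the median of the negative controls. In the Rag experiment Il3 read 6.49 and 7.59 in RagAB KO arrays, against 6.39 and 6.06 in WT arrays. The Rheb effect of 2.94 ± 0.35 was called (limma adjusted p = 0.0034) also without any 1 of the 12 Rheb arrays, the Rag effect of 0.81 ± 0.32 was not, and the difference of -2.13 ± 0.47 missed the threshold (adjusted p = 0.0778). Nt5e, the ectoenzyme CD73 that makes adenosine, came from the Rag side, with 8.93 and 8.76 in RagAB KO arrays, against 10.47 and 10.32 in WT arrays. The Rheb1/2 KO arrays of Nt5e read 10.88, 10.999 and 10.90, against 11.23, 11.35 and 11.17 in WT arrays. Both knockouts lay below WT, the Rag effect of -1.56 ± 0.24 was called (limma adjusted p = 0.0287, up to 0.357 without any 1 of the 4 stimulated Rag or 2 unstimulated WT arrays), and the difference was -1.23 ± 0.26 (adjusted p = 0.0806).

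Ccr6, a chemokine receptor, moved in opposite directions, with 9.02 and 9.37 in RagAB KO arrays, against 10.32 and 9.67 in WT arrays, and 10.09, 10.31 and 10.24 in Rheb1/2 KO arrays, against 9.46, 9.31 and 9.63 in WT arrays. The Rheb effect of 0.75 ± 0.11 was called (limma adjusted p = 0.012, up to 0.067 without Rheb1/2 KO array 2 or WT array 1 or 2), the Rag effect of -0.80 ± 0.32 was not, and the difference of -1.55 ± 0.34 was not called (adjusted p = 0.129). Id3, an inhibitor of E proteins, had a difference of -1.41 ± 0.42 (adjusted p = 0.415) from a Rag effect of -1.58. Dgat2, the enzyme of the last step of triglyceride synthesis, Actg2, a smooth muscle actin, Hmgn3, a nucleosome-binding protein, Acot10, an acyl-CoA thioesterase, and Spry1, an inhibitor of receptor signalling, had differences of -1.36, -1.46, -1.05, -0.80 and -0.88 with adjusted p between 0.252 and 0.647. Actg2 had means under the negative control median in the RagAB KO group and the WT group of the Rheb experiment. Jag1, a Notch ligand, was another gene of the Rheb side, with a Rheb effect of 1.15 ± 0.17 (limma adjusted p = 0.0111, up to 0.0589 without any 1 of 4 stimulated Rheb arrays), a Rag effect of 0.23 ± 0.27 and a difference of -0.92 ± 0.32 (adjusted p = 0.674).

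Ribosome biogenesis had the lowest median of the lists over 12 genes. Of 40 measured members, 5 had a difference above 0 with a median of -0.31, from a median Rag effect of -0.41 and a median Rheb effect of -0.06. None was called and 1 had an unadjusted p under 0.05, in the lower direction (1.45% of all genes). Both RagAB KO arrays lay below WT in 29 of the 40 (26.2% of all genes). The member at that p was Rrp9, a part of the particle that processes ribosomal RNA, with 9.60 and 9.85 in RagAB KO arrays, against 10.07 and 10.52 in WT arrays, and a difference of -0.63 ± 0.27 (adjusted p = 0.958). The median was -0.09 without RagAB KO array 1, with 12 members above 0, and -0.52 without RagAB KO array 2, with 8 members at an unadjusted p under 0.05 in the lower direction (1.09% of all genes). Nucleotide and one-carbon synthesis gave a median of -0.28 with 4 of 19 above 0 and 0 called. At an unadjusted p under 0.05 there were 2, both lower (1.45% of all genes). These were Mthfd2, a mitochondrial folate enzyme, at -0.69 ± 0.29 and Umps, of pyrimidine synthesis, at -0.78 ± 0.32, and the list's median was -0.07 without RagAB KO array 1.

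Lists of sterol synthesis and mitosis had lower medians in the Rheb effect than in the Rag effect. Of 19 measured genes of sterol synthesis, 17 had a difference above 0, with a median of 0.20 from a median Rag effect of -0.17 and a median Rheb effect of -0.49. All 3 Rheb1/2 KO arrays lay below all WT arrays in 16 of the 19 (8.8% of all genes, and above in 6.75%). Both RagAB KO arrays lay below WT in 11 of the 19 (26.2% of all genes). None of the differences was called. Nsdhl, a sterol dehydrogenase, read 9.42, 9.64 and 9.42 in Rheb1/2 KO arrays, against 10.15, 10.24 and 10.47 in WT arrays, while RagAB KO arrays read 9.71 and 9.68, against 9.83 and 9.21 in WT arrays. Its difference was 0.97 ± 0.40 and that of the sterol carrier Stard4 0.78 ± 0.31 (adjusted p = 0.958 and 0.925).

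Mitotic genes gave a median difference of 0.36, with 31 of 36 above 0, a median Rag effect of -0.15 and a median Rheb effect of -0.50. None was called and 3 had an unadjusted p under 0.05, all higher (3.36% of all genes). These were the kinase Nek2 at 1.00 ± 0.38, the cyclin Ccnb2 at 0.82 ± 0.30 and the kinesin Cenpe at 0.76 ± 0.34 (adjusted p = 0.835, 0.835 and 0.958). Nek2 and Cenpe had means under the negative control median in every stimulated group but the WT of the Rheb experiment. The Rheb1/2 KO arrays lay below WT for 19 of the 36 (8.8% of all genes). Nek2 and Cenpe had called Rheb effects of -1.15 and -0.85 (limma adjusted p up to 0.115 and 0.0732 without 1 of 6 or 5 stimulated Rheb arrays). This median rested on the WT arrays of the Rag experiment, at 0.74 without WT array 1 and 0.05 without WT array 2, with 22 of 36 above 0 in that fit. Genes of DNA replication and entry into S phase had a median of 0.15 with 24 of 36 above 0 and 0 at an unadjusted p under 0.05. That median was 0.33 without RagAB KO array 1 and 0.31 without WT array 1, 0.03 without WT array 2, and -0.04 without RagAB KO array 2, with 16 of 36 above 0.

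**Figure D5:**
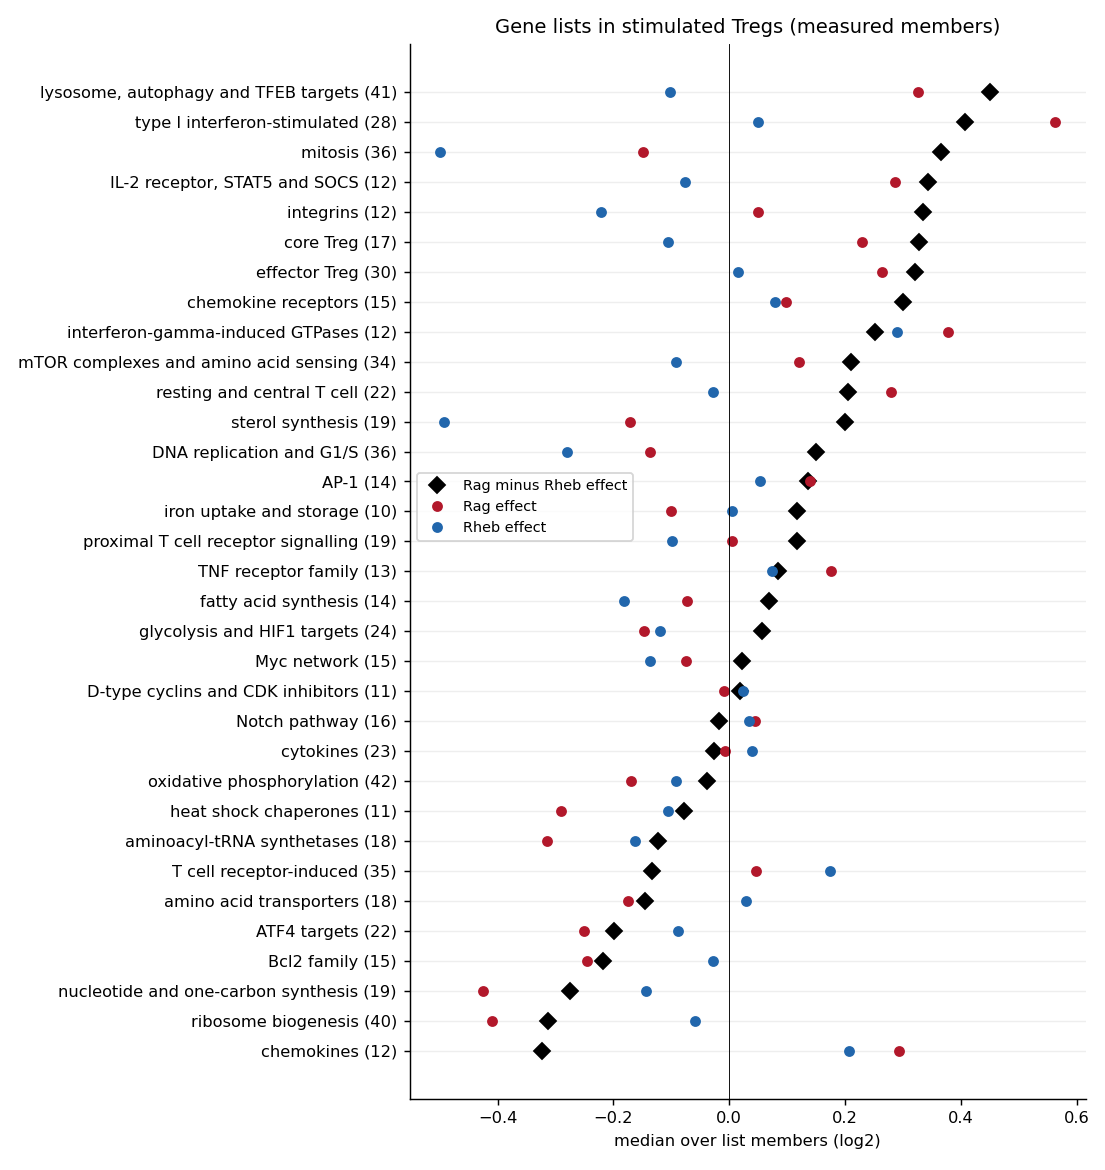
Median over the measured members of each pathway list with 10 or more of them (number in brackets), for the Rag effect (red), the Rheb effect (blue) and their difference (black diamonds), on the log2 scale. Lysosome and interferon lists sit at the top with Rag medians of 0.33 and 0.56, mitosis and sterol synthesis have Rheb medians of -0.50 and -0.49, and ribosome biogenesis lies near the bottom at -0.31.

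Among 17 measured genes of the core Treg programme the median difference was 0.33 with 14 above 0 and 0 called. At an unadjusted p under 0.05 there were 2 higher (3.36% of all genes) and 1 lower (1.45%). The median was 0.03 without both stimulated Rag arrays numbered 2, 0.03 without WT array 2 and 0.64 without WT array 1. Il2ra, the high-affinity chain of the IL-2 receptor, read 9.17 and 9.16 in RagAB KO arrays, against 8.53 and 8.33 in WT arrays, and 7.70, 7.75 and 7.96 in Rheb1/2 KO arrays, against 7.98, 7.92 and 7.81 in WT arrays. Only the Rag groups stood apart, with a difference of 0.84 ± 0.30 (adjusted p = 0.714). Ctla4, an inhibitory receptor of Tregs, read lower in all knockout than in all WT arrays of each experiment and had a difference of -0.37 ± 0.26 (adjusted p = 0.958). Effector Treg genes had a median of 0.32 with 22 of 30 above 0 and 0 called, and the median was -0.03 without WT array 2 of the Rag experiment and 0.60 without WT array 1. In the list of the IL-2 receptor, STAT5 and SOCS genes, 9 of 12 lay above 0 with a median of 0.34, and 4 had an unadjusted p under 0.05, all higher (3.36% of all genes), which were Il2ra, the feedback inhibitors Socs1 and Socs2 at 0.93 ± 0.33 and 1.08 ± 0.37, and the survival gene Bcl2 at 0.89 ± 0.31 (adjusted p between 0.714 and 0.789). Without WT array 2 of the Rag experiment 0 of the 12 had such a p and the median was 0.18, and without WT array 1 the median was 0.55.

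The same difference in unstimulated cells was called for 7 genes (0.0359%), and 5 of the 25 called here were among them: Rraga, Hpgds, Eps8l1, Lilr4b and Lcn10. The unstimulated Rag arrays spread most, with a root mean square SD within groups of 0.35 in RagAB KO and 0.35 in WT. It was 0.21 and 0.27 in the stimulated RagAB KO and WT groups. This limits the unstimulated test and that of the change between states, and it enters the spread behind the 25 calls. Hpgds differed by 3.10 in unstimulated cells and by 2.90 in stimulated cells, Eps8l1 by 2.41 and 2.31, and Lilr4b by 2.31 and 2.03. The sign was shared in 19 of the 25. A test of the change in the difference between states, stimulated minus unstimulated, called 0 genes (0%) with 1049 at an unadjusted p under 0.05 (5.38%), so no difference is shown to belong to stimulated cells. The bright genes with the lowest p of that test were Asah1 at 2.20, Usp18 at 2.34, the ceramidase gene Acer2 at 1.80, the interferon-stimulated Samd9l at 1.58 and the collagen gene Col27a1 at -1.90 (unadjusted p between 8.2e-05 and 0.000416, adjusted p between 0.733 and 0.862). Hgf and Hc, called above but too dim for this ranking, had 2.80 and 2.86 (unadjusted p = 1.66e-05 and 0.000192, adjusted p = 0.325 and 0.75). The type I interferon list had a median difference of -0.29 in unstimulated cells, against 0.41 in stimulated cells. Medians of core Treg genes, resting and central T cell genes and interferon-gamma-induced GTPases were also negative in unstimulated cells, at -0.16, -0.30 and -0.49. Those in stimulated cells were 0.33, 0.21 and 0.25. The lysosome list had 0.26 in unstimulated and 0.45 in stimulated cells. These changes of list medians were not tested.

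Among markers of other cell types, the 8 measured neutrophil genes had a median difference of 0.93, with 7 above 0, and their mean level was 6.76 and 8.47 in RagAB KO arrays, against 6.38 to 6.92 in WT arrays, and 6.40 to 6.51 in Rheb1/2 KO arrays, against 6.37 to 6.53 in WT arrays. RagAB KO array 2 was the high one: S100a8, 1 of these markers, read 5.08 and 8.99 in RagAB KO arrays, against 5.47 and 4.81 in WT arrays. Without RagAB KO array 2 the neutrophil median was -0.08, and without RagAB KO array 1 it was 2.00, with 5 of the 8 at an unadjusted p under 0.05 (1.76% of all genes, all higher). Macrophage, dendritic cell, B cell, NK cell, CD8 T cell, conventional CD4 T cell and erythroid markers had medians of -0.03, -0.09, -0.15, 0.10, 0.15, 0.04 and 0.02, and genes induced by cell dissociation -0.09. In the CD8 T cell list 2 of 5 markers had an unadjusted p under 0.05, both higher (3.36% of all genes). The median of this list was 0.44 without WT array 2 and 0.49 without both stimulated Rag arrays numbered 2. Over the settings tried, the macrophage median ran between -0.11 and 0.37 and the NK cell median between -0.09 and 0.43, the highest without the dimmest 40% of genes. Mean levels of the macrophage list were 5.97 to 6.21 in RagAB KO arrays, against 5.98 to 6.12 in WT arrays, and 6.43 to 6.49 in Rheb1/2 KO arrays, against 6.38 to 6.54 in WT arrays, with 4 of 12 markers under the negative control median in every stimulated array. Mpo and Elane, other neutrophil markers, had differences of 2.31 and 1.46. Of the remaining lists Eomes, Cd8b1, Siglech and Marco had an unadjusted p under 0.05, with 1.34, 0.94, -0.83 and -0.75. None of these genes was called. Within the dendritic list H2-Aa, of the MHC class II, had a difference of 1.36 ± 0.32 (adjusted p = 0.177), while Itgax and Flt3 had -0.26 and -0.12. The part of these cells in the differences above was not tested.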

How the data were processed

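RNA of sorted Tregs was amplified, biotin-labelled and hybridised to Clariom S arrays, 1 per sample. The deposited values are log2 signals from RMA in Affymetrix Expression Console 1.1, per the submitters' processing notes. A joint or separate normalization of the experiments is not stated in the sources used here. Of 28846 probe sets, 19572 carried 1 gene in the platform annotation; 55 genes had several and kept the probe set of highest mean, leaving 19505 genes. Another 2634 had no gene name and 5222 were negative controls. The precision is limited by the number of arrays and by the spread of the unstimulated Rag arrays.

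In R 4.3.3, limma 3.58.1 fitted 1 mean per group in each experiment separately (8 Rag and 12 Rheb arrays, unstimulated arrays included for the spread). The knockout effects were subtracted, their moderated variances added, and degrees of freedom taken by Welch-Satterthwaite. Tests were two-sided with Benjamini-Hochberg adjustment over all genes and calls at 0.05. Errors are standard errors. The procedure was tested on simulated data with independent noise for each gene and array. Such data hold no shifts of whole arrays, so they cannot show how calls depend on single arrays. The samples, gene lists and rules were chosen with earlier results of these data known. Named genes were the targeted genes, Il2ra and Ctla4, the 10 largest called differences in each direction among bright genes (filled up by unadjusted p), up to 4 members per list with an unadjusted p under 0.05 plus those called, and the 5 of lowest p for the change between states. Other genes were named after their values were seen. Motifs were searched in the RefSeq windows of GRCm38.p6. Alternatives were the spread, scaling, a filter on the dimmest 40% of genes, the prior, a replicate block and each array left out.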

Additional observations from a re-analysis of the deposited data

How the results depend on the processing

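With 24 higher, 1 lower, 20 Rag, 106 Rheb and 0 state calls as reported, the counts moved as follows. With 1 spread for both experiments 34 genes were higher and 3 lower. With only the stimulated arrays 164 were higher and 10 lower, with 274 Rag and 59 Rheb calls. A second quantile normalization gave 43 higher, 3 lower and 42 Rag calls, and centring on array medians gave 53, 3 and 76. Without the dimmest 40% of genes there were 35 higher, 2 lower and 61 Rag calls. Only 18 of the 25 called genes passed this filter, and these 18 remained called. A trended robust prior gave 43 higher, 3 lower, 106 Rag, 214 Rheb and 1 state call. Without the 2 unstimulated Rag arrays of lowest signal, chosen after seeing the data, 122 were higher and 7 lower with 274 Rag calls. Without both stimulated Rag arrays numbered 2, chosen likewise, 1 was higher and 0 lower with 4 Rag calls. Leaving out 1 array gave 1 to 61 higher, 0 to 4 lower, 2 to 109 Rag, 25 to 106 Rheb and 0 to 169 state calls, the last without unstimulated RagAB KO array 2. The 25 called genes had the same sign in every alternative in which they were tested. The 1 named gene to turn was Rragb, between -0.47 and 0.0194 with 1 array left out, the highest without stimulated Rheb1/2 KO array 1, and at 0.00612 without stimulated WT array 1 of the Rag experiment; the causes were not tested. The replicate number as a block gave 33 higher, 2 lower, 42 Rag and 52 Rheb calls. Deviations of same-numbered stimulated arrays correlated at 0.10 in the Rag experiment and between -0.003 and 0.04 in the Rheb experiment. With 2 arrays a group the Rag deviations mirror each other, so that check rests on 1 value. Whether same-numbered arrays belong together cannot be told from these values. A lone array left in a group was assumed to vary like the others. With 2 Rag arrays a group, precision is set by that experiment.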

Other observations

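Several other groups held members with an unadjusted p under 0.05, and none of the differences given here was called. In the Myc network (15 measured, median 0.02), the Myc antagonists Mxd1 and Mxi1 had differences of 1.22 ± 0.33 and 0.78 ± 0.33, with 10.95 and 10.55 for Mxd1 in RagAB KO arrays, against 9.79 and 9.26 in WT arrays. Among 12 integrin genes (median 0.33), Itgb3 had 1.19 ± 0.32 and Itga6 1.09 ± 0.29, and the list's median was 0.01 without WT array 2 of the Rag experiment. Among 22 genes of resting and central T cells (median 0.21), the inhibitor of PI3-kinase Pik3ip1 had 1.16 ± 0.36 and the phosphatase Dusp10 1.05 ± 0.36. Effector Treg genes included the inhibitory receptor Havcr2 at 1.35 ± 0.45. Among 15 chemokine receptors (median 0.30), Ccr9 had 1.29 ± 0.43, Ccr4 0.84 ± 0.31 with a Rheb effect of -0.75 (limma adjusted p = 0.0451, up to 0.194 without any 1 of 10 Rheb arrays), and Cx3cr1 0.64 ± 0.30. Without WT array 2 of the Rag experiment that median was 0.04 and 0 of the 15 had an unadjusted p under 0.05 in the higher direction. Havcr2, Ccr9 and Cx3cr1 had means under the negative control median in both Rheb groups.

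Genes of the ATF4 response (22 measured, median -0.20) went both ways, with Ddit3 at 0.74 ± 0.30 and Mthfd2 at -0.69 ± 0.29. Amino acid transporters (18, median -0.15) held Slc36a1, a lysosomal carrier, at 0.97 ± 0.38 and Slc7a11, the cystine carrier, at -0.80 ± 0.32. Among aminoacyl-tRNA synthetases (18, median -0.12), Tars had -0.58 ± 0.27. T cell receptor-induced genes (35, median -0.13) held Cd83 at 0.83 ± 0.26, AP-1 genes (14, median 0.14) Fosl2 at 0.74 ± 0.34 and Fosl1 at -0.77 ± 0.30, and proximal T cell receptor signalling (19, median 0.12) Rasgrp1 at 0.69 ± 0.27. Among chemokines (12, median -0.32), Cxcl10 had -0.82 ± 0.35 and Cxcl2 -0.78 ± 0.36, and in the Notch pathway (16, median -0.02) Notch3 had -0.70 ± 0.28. Fads1 of fatty acid synthesis (14, median 0.07) had 0.86 ± 0.42 and Pfkp of glycolysis and HIF1 targets (24, median 0.06) 0.70 ± 0.30. Slc7a11 and Cxcl2 had RagAB KO means under the negative control median, and Slc7a11 also a WT mean in the Rheb experiment.

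Further lists with no member under an unadjusted p of 0.05 other than Bcl2 were LXR targets, D-type cyclins and CDK inhibitors, oxidative phosphorylation, interferon-gamma-induced GTPases, the TNF receptor family, the Bcl2 family and heat shock chaperones, with medians of 0.04, 0.02, -0.04, 0.25, 0.08, -0.22 and -0.08. The 6 Rag and Rheb GTPases had a median of 1.06 and the 10 genes of iron uptake and storage 0.12. The GTPase list includes the targeted genes Rraga, Rragb, Rheb and Rhebl1, so the deletions themselves enter its median.

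Several of these medians changed sign or size when 1 of the 4 stimulated Rag arrays was left out. Without WT array 2, those of interferon-gamma-induced GTPases, the TNF receptor family, LXR targets and D-type cyclins were -0.04, -0.21, -0.08 and -0.05, and those of the Myc network, fatty acid synthesis, glycolysis and proximal T cell receptor signalling were -0.01, -0.03, -0.08 and -0.07. Without RagAB KO array 1, heat shock chaperones, oxidative phosphorylation and D-type cyclins had medians of 0.12, 0.12 and -0.08, and ATF4 targets, aminoacyl-tRNA synthetases and T cell receptor-induced genes had -0.09, -0.01 and -0.05. Without RagAB KO array 2, LXR targets, D-type cyclins, oxidative phosphorylation and AP-1 genes had -0.05, -0.10, -0.19 and 0.00. Without WT array 1, amino acid transporters, iron uptake and storage and integrins had -0.06, 0.35 and 0.69.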
